A study of Mus musculus with 10 samples.

Results

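The response to loss of the transcription factor Runx3 was examined in natural killer cells (NKC) that had been grown in IL-15. The 4 arrays labelled as NKC in IL-15, 2 wild type (WT) and 2 Runx3-/- (KO), were taken out of the 10 arrays of the series by their labels. The other 6 arrays, 3 WT and 3 KO, held NKC grown in IL-2 and served as a second cytokine beside the first. They also entered the choice of probe sets, the filter on weak genes and the estimate of spread behind every IL-15 call. All mice were of the ICR strain and 6 weeks old, and their sex was given as male or female without being tied to a sample. Splenic NKC were enriched by negative selection and then kept for 7 days with recombinant mouse IL-15 or human IL-2. A sort for DX5 before culture is described in the methods. By the series' design each array came from its own mouse. The Runx3-/- mice lacked Runx3 in every cell, so the cells that reached the culture had also developed without it. RNA was measured on Affymetrix mouse arrays, and every level below is a log2 signal of 1 probe set.

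Runx3 belongs to a family of DNA-binding proteins that act together with the partner Cbfb on short motifs in promoters and enhancers, where they raise some genes and silence others. It is known for its roles in cytotoxic lymphocytes, CD8 T cells as well as NKC, which kill target cells with granules that hold perforin and serine proteases called granzymes. IL-15 signals through the receptor chains Il2rb and Il2rg, which IL-2 uses as well, and is needed for NKC to survive and divide.

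An array's replicate number had a particular meaning in these files. For each of the 45101 probe sets, WT array 1 plus KO array 1 gave the same sum as WT array 2 plus KO array 2, within 0.00013, while the crossed sums had a median difference of 0.17. Each array therefore held the mean of its cytokine plus or minus 0.5 times the difference of its own pair, and what the 2 pairs measured was a difference KO minus WT in pair 1 and another in pair 2. Values for single arrays are given below, but WT and KO arrays of a gene stood apart whenever both pairs pointed the same way, which held for 64.6% of the 9391 genes tested. A difference is given as its mean ± SD over 2 pairs, and the adjusted p is that of limma with the pair as a block. Genes that had an adjusted p under 0.05 and moved 1.5-fold or more were called, and only these are said to have risen or fallen. Signals under log2 5 were treated as weak. If the mean of either genotype was that weak, the fold is a lower limit, namely the brighter mean against log2 5. The log2 differences of such genes are those of the deposited values and are not exact.

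The NKC label was checked on Ncr1, which encodes the NKC receptor NKp46, at 11.80 and 12.34 in WT and 12.36 and 11.82 in KO. The granzyme Gzma lay between 15.94 and 16 in all 4 arrays. Itga2, which encodes the DX5 antigen of the sort, stayed between 2.24 and 2.45, in the range of weak probe sets. None of the 13 NKC marker genes tested was called, but only 1.3% of all tested genes were, so this says little about the markers. Of the 13, 8 were lower in KO in both pairs and 2 higher, with a median of -0.25. Over all tested genes, 32.9% were lower and 31.7% higher in both pairs, with a median of -0.01. Runx3 itself was measured by a bright probe set at 12.45 and 12.51 in WT and at 11.41 and 11.35 in KO, a difference of -1.09 ± 0.09 (adjusted p = 0.293), and by another between 2.02 and 2.81. Where these probe sets lie relative to the disrupted part of the gene is not given, so they cannot check the genotype. Cbfb, the partner, was at 12.60 and 12.71 in WT and 13.26 and 13.15 in KO (adjusted p = 0.548). Runx1, the relative of Runx3, was at 10.42 and 9.83 in WT and 10.45 and 11.04 in KO (adjusted p = 0.731). Other bright probe sets of Runx1 differed by 0.56 and 2.52 in the pairs, by 0.21 and 2.40, and by -0.78 and 0.11. Xist, the RNA of the inactive X chromosome, ranged from 14.28 to 14.66 over the 4 IL-15 arrays, WT and KO alike.

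Loss of Runx3 changed 122 of the 9391 genes in IL-15, or 1.3%. At that share a short gene list can lack a call by its size alone, so the absence of calls in a list says little about its members. KO NKC had more RNA of 43 genes (0.458%) and less of 79 (0.841%). After quantile normalization the split was 41 higher and 47 lower. The called differences ranged from 1.80 to 8.24 in absolute size on the log2 scale, and in 52 of the 79 falls the KO mean lay in the weak range. By direction alone, 31.7% of the tested genes were higher in KO in both pairs and 32.9% were lower in both. These shares are the background for the counts by direction in every list below. A difference of at least 1 on the log2 scale in both pairs was seen upward for 315 genes (3.35%) and downward for 394 genes (4.2%). Across the tested genes, which are not independent of each other, the differences of pair 1 and pair 2 correlated at r = 0.594. Pair 1 had the greater difference in 88 of the 122 called genes. With 2 pairs the count was fragile: it was 0 when pair 1 was left out, 11 when pair 2 was left out, and 12 when pair 1 of the IL-2 arrays, which contributes to the estimate of spread, was left out.

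**Figure D1:**
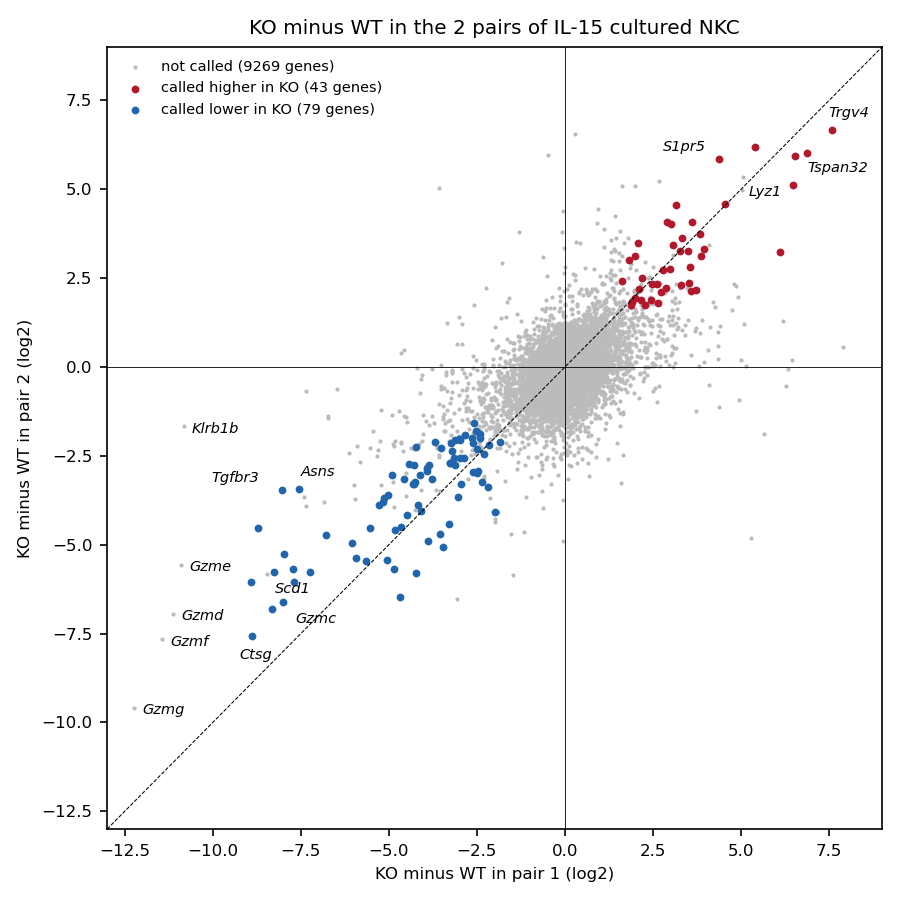
Difference between KO and WT (log2) in pair 1 (horizontal) and pair 2 (vertical) for the 9391 tested genes of IL-15 cultured NKC. Red points are the 43 genes called higher in KO, blue points the 79 called lower, grey points the rest, and the dashed line marks equal differences. Gzmg, Gzmf, Gzmd and Gzme lie furthest to the lower left but stayed grey.

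Among the 43 rises, the largest in the weaker of the 2 pairs was that of Trgv4, a variable segment of the T-cell receptor gamma chain. Its level was 3.98 and 4.43 in WT and 11.57 and 11.11 in KO, at least 80.8-fold higher (7.13 ± 0.65, adjusted p = 0.00812). A second variable segment, Trgv1, rose from 9.83 and 9.95 to 13.33 and 13.20. Gamma segments resemble each other, and their probe sets may share signal.

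Tgm2, an enzyme that crosslinks proteins, was at 4.81 and 5.24 in WT and at 11.69 and 11.27 in KO, 87.9-fold higher (adjusted p = 0.0157). Tspan32, a tetraspanin that the study counts among genes that restrain proliferation, was at 5.42 and 5.71 in WT and at 11.95 and 11.66 in KO (6.24 ± 0.42). It had the lowest adjusted p of all genes, 0.00366. St6gal1, which adds sialic acid to glycoproteins, rose from 2.48 and 2.08 to 7.87 and 8.27, at least 8.38-fold. Bank1, a signalling scaffold best known from B cells, rose from 4.29 and 4.97 to 10.77 and 10.10, at least 43.3-fold. That the KO arrays of these genes lay far above both WT arrays follows from the ranking by the weaker pair and adds no support.

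S1pr5, the receptor for sphingosine 1-phosphate that guides NKC out of lymphoid tissue, was at 4.92 and 4.19 in WT and at 9.30 and 10.04 in KO, at least 25.5-fold higher (5.12 ± 1.04, adjusted p = 0.0111). Trim2, a ubiquitin ligase, showed almost the same difference in both pairs, 4.54 and 4.59. Pxylp1, a phosphatase of proteoglycan synthesis, did so as well, at 3.27 and 3.26, and was already bright in WT at 9.45 and 9.46. Abca3, a lipid transporter, rose by 3.78 ± 0.07, and Usp6nl, a regulator of Rab GTPases, by 3.85 ± 0.34. The remaining rises among the first 15 were Grasp, a scaffold protein (3.65 ± 0.45), Cpd, a carboxypeptidase (3.49 ± 0.22), Piezo1, a mechanosensitive ion channel (4.66 ± 2.03), and Ccn5, a secreted matricellular protein (3.86 ± 1). Piezo1 stood out by its unequal pairs, 6.09 and 3.22.

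**Figure D2:**
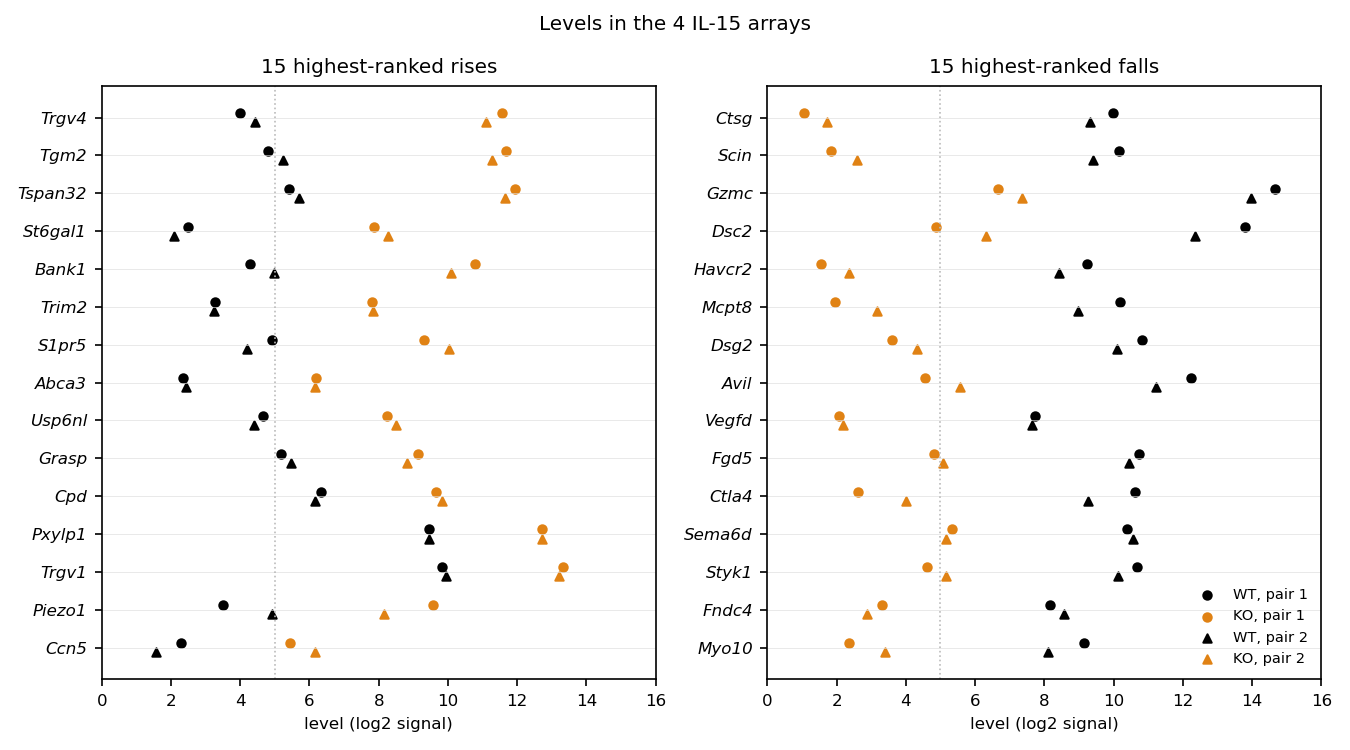
Levels (log2 signal) in the 4 IL-15 arrays for the 15 rises (left) and 15 falls (right) with the greatest difference in the weaker pair. Black marks are WT and orange marks KO, circles belong to pair 1 and triangles to pair 2, and the dotted line marks log2 5. Ctsg fell from 9.97 and 9.31 in WT to 1.07 and 1.73 in KO. By the choice of genes, no WT mark lies among the KO marks of its gene.

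Among the 79 falls, the greatest in the weaker of the 2 pairs was that of Ctsg, which encodes the granule protease cathepsin G. Its level was 9.97 and 9.31 in WT and 1.07 and 1.73 in KO, at least 25-fold lower (-8.24 ± 0.93, adjusted p = 0.0363). Scin, an actin-severing protein, fell from 10.17 and 9.41 to 1.84 and 2.60, at least 27.7-fold. Gzmc, a granzyme, fell from 14.66 and 13.97 to 6.65 and 7.35, 159-fold (adjusted p = 0.0165). For these 3 genes the WT cells held a clear signal, and for Ctsg and Scin the KO signal was in the weak range.

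Dsc2 and Dsg2, cadherins of the desmosome, a junction known from epithelia and heart muscle, fell together. Dsc2 went from 13.79 and 12.35 in WT to 4.86 and 6.30 in KO, 180-fold, and Dsg2 from 10.82 and 10.09 to 3.60 and 4.33, at least 43.9-fold. Pkp2, a desmosomal plaque protein chosen after its values were seen, fell by 3.41 ± 0.70 on the log2 scale. Avil, an actin-binding relative of Scin, went from 12.24 and 11.23 to 4.54 and 5.56, 103-fold (adjusted p = 0.0488).

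Vegfd, a growth factor for lymphatic vessels and also among the first 15 falls, fell from 7.74 and 7.64 to 2.08 and 2.18, with 5.66 and 5.46 in the pairs. Fgd5, an activator of the GTPase Cdc42, fell from 10.72 and 10.45 to 4.80 and 5.07 and had an adjusted p of 0.00509, the lowest of the falls. Sema6d, a semaphorin, fell by 5.23 ± 0.27 and Fndc4, a fibronectin domain protein, by 5.26 ± 0.58. Styk1, a kinase-like protein that the study counts among genes that promote proliferation, was at 10.67 and 10.12 in WT and at 4.62 and 5.17 in KO, at least 42-fold lower (adjusted p = 0.00934). Myo10, a myosin of filopodia, fell by 5.75 ± 1.45.

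The 15 rises and 15 falls of highest rank rested on the brightest probe set of each. Of these genes, 16 had other probe sets, 43 in all, and the 18 that reached log2 5 in a group mean moved in the same direction. Some passed that limit only through the group where the gene was high, such as 1 of Usp6nl (3.72 in WT, 7.94 in KO). Weak ones that did not move, such as 1 of Tgm2 at 2.46 in both means, were left out. The agreement is thus partly built in and is no separate support. Some of the 18 moved far less: 0.48 and 2.64 in the pairs for Tspan32, 1.13 and 0.17 for Grasp, -3.19 and -0.08 for a probe set of Dsg2, and -2.16 and -0.23 for one of Myo10.

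Promoter sequence is shown for the highest-ranked rises and falls that have a single start site in the RefSeq table (GRCm38.p6), to set the RUNX motif beside genes that moved most. Each window runs from 250 bases before to 50 bases after the start, on the gene's strand. Capitals mark the RUNX motif in any of its variants (TGTGGT with T or C as the third and the last letter, that is also TGCGGT, the variant TGTGGC, and finally TGCGGC) on either strand.
Tspan32 (rose, chr7:143004796-143005095, plus strand): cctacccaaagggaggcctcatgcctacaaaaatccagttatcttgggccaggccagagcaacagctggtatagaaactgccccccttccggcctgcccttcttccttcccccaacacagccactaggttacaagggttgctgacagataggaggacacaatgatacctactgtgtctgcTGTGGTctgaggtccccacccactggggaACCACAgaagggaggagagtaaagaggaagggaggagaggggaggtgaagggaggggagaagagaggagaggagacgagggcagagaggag
Bank1 (rose, chr3:136326017-136326316, minus strand): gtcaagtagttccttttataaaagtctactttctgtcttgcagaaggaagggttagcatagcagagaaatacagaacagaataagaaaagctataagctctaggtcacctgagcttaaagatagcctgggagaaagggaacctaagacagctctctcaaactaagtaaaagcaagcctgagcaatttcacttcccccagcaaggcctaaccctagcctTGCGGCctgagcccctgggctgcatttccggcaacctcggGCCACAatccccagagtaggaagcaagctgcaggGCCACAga
S1pr5 (rose, chr9:21248394-21248693, minus strand): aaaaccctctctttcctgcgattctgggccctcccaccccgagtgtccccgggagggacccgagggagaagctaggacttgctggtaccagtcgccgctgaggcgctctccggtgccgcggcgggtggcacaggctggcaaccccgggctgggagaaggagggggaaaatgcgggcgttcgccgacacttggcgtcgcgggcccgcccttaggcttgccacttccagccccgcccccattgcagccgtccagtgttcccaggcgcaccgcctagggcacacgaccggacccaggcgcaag
Ctsg (fell, chr14:56102525-56102824, minus strand): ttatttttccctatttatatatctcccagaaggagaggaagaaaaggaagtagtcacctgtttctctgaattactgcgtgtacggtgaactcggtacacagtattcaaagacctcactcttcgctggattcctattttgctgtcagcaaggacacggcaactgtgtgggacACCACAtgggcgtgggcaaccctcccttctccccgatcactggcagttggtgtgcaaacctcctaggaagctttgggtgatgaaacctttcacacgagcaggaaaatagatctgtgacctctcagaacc
Scin (fell, chr12:40134179-40134478, minus strand): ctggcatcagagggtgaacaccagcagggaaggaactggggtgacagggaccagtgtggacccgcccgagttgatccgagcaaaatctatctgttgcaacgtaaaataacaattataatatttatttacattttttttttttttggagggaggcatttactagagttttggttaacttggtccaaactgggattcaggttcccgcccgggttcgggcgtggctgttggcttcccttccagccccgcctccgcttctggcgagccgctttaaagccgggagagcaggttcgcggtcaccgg
Gzmc (fell, chr14:56234608-56234907, minus strand): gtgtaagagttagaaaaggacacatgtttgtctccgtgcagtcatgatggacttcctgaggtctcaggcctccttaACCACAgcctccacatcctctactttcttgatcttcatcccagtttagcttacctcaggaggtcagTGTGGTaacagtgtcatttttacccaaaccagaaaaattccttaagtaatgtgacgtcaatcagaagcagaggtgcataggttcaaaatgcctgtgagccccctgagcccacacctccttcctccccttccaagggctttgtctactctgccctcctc

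Tspan32 held 2 motifs, which began 70 and 41 bases before the start, and Bank1 held 3, of which 1 began 32 bases before it. Ctsg held 1, at 79 bases, and Gzmc 2, at 174 and 108 bases. S1pr5 and Scin held none of these letters in the window. The motif is short, and 45.2% of all 32851 windows in the table held it at least once. The share was 49.7% of the windows of tested genes, 47.1% of the 51 windows of called rises (32 of the 43 genes matched) and 48.8% of the 80 windows of called falls (56 of the 79 genes matched). The called genes thus held the motif near their start about as often as the tested genes as a whole. The study found many Runx3 peaks of resting NKC far from any start site, and these windows do not cover such sites. The shares therefore cannot tell whether Runx3 binds the called genes.

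Granzymes and perforin had the lowest median of the lists, and many of the genes concerned are neighbours on chromosome 14. There a run of neighbouring genes encodes mast cell proteases, cathepsin G and most granzymes. Mcpt8, next to Ctsg, fell from 10.19 and 8.96 in WT to 1.94 and 3.17 in KO, at least 23.9-fold (adjusted p = 0.0363). On the other side of Ctsg stand Gzme, Gzmd, Gzmg, Gzmn, Gzmf, Gzmc and Gzmb.

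Gzmg was at 13.69 and 12.36 in WT and at 1.45 and 2.77 in KO, a difference of -10.92 ± 1.87, the greatest in both pairs of any gene tested. Its adjusted p was 0.0768, so that it was not called. Gzmf was at 12.10 and 10.20 in WT and at 0.65 and 2.54 in KO (adjusted p = 0.0783). For Gzmd the arrays gave 14.74 and 12.65 in WT against 3.62 and 5.71 in KO (adjusted p = 0.0757). Gzme, at 15.15 and 12.48 against 4.24 and 6.91, had the least even pairs of the 4, -10.91 and -5.57 (adjusted p = 0.106). In IL-2, whose pairs enter the same estimate of spread, the differences of these 4 genes varied widely, with SDs of 3.95 to 5.49 over 3 pairs. Granzymes C to G are close paralogs, and their probe sets may not be separate measurements.

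Gzmb, at the far end of the run and the main granzyme of NKC besides Gzma, lay at 15.53 and 15.68 in WT and at 15.34 and 15.19 in KO (-0.34 ± 0.21, adjusted p = 0.704). Gzmn was at 5.48 and 4.45 in WT and at 3.01 and 4.04 in KO, with both means in the weak range. At the near end, Cma1, a chymase, was at 9.84 and 7.16 in WT and at 3.11 and 5.78 in KO (adjusted p = 0.189), and Mcpt1, Mcpt2 and Mcpt4 were below log2 3 in all 4 arrays. The flanking genes Khnyn and Sdr39u1 had pairs of opposite sign. Perforin (Prf1), the pore-forming protein encoded elsewhere, was at 13.89 in both WT arrays and at 12.14 and 12.13 in KO, a difference of -1.76 with no visible spread (adjusted p = 0.137). Of the 10 granzyme and perforin genes tested, 1 fell and 9 were lower in both pairs, with a median of -5.09 beside -0.01 over all tested genes.

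**Figure D3:**
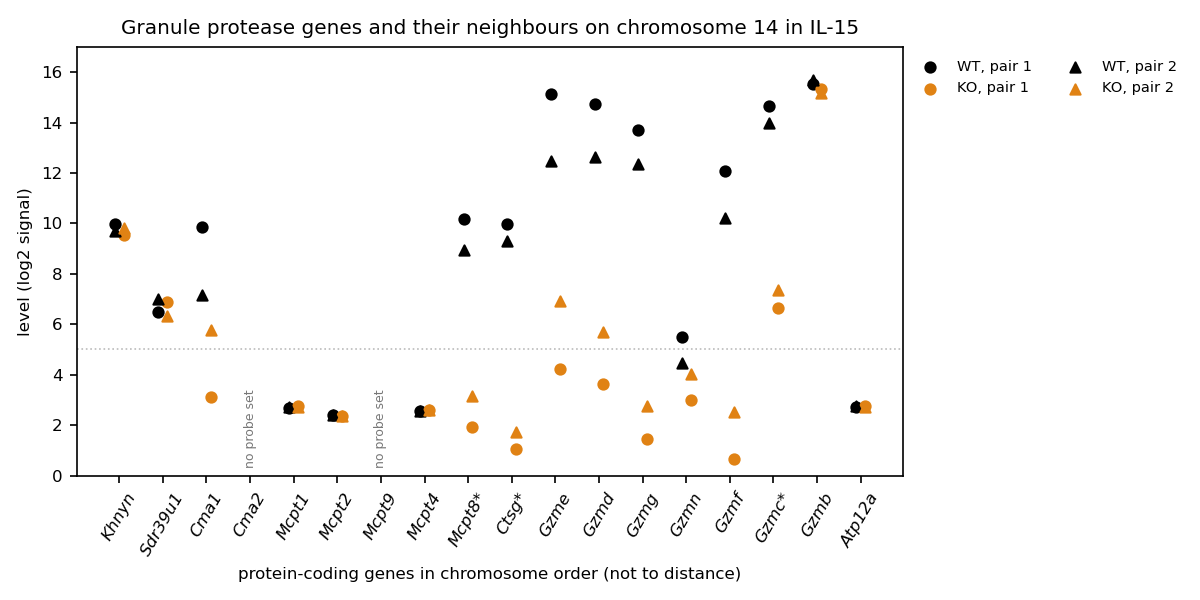
Levels (log2 signal) of the granule protease genes and their neighbours on chromosome 14 in the 4 IL-15 arrays, in gene order and not to distance. Black marks are WT and orange marks KO, circles belong to pair 1 and triangles to pair 2, an asterisk marks a called gene, and the dotted line marks log2 5. WT and KO are far apart from Mcpt8 to Gzmc except at Gzmn, and lie together at Gzmb, between 15.19 and 15.68.

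Proteins that move granules or protect the cell from its own proteases were examined next. Serpinb6a, an inhibitor of serine proteases, fell from 12.55 and 12.00 to 8.68 and 9.24 (-3.31 ± 0.79, adjusted p = 0.0432). Its relatives Serpinb9b, at 11.61 and 10.54 in WT and 7.88 and 8.96 in KO, and Serpinb9, at 13.06 and 12.54 against 10.89 and 11.41, did not pass (adjusted p = 0.0717 and 0.111). Of 16 cathepsins, cystatins and serpins tested, 2 fell, Ctsg and Serpinb6a. None of the 22 genes of granule trafficking was called, beside 1.3% of all tested genes, and the median of that list was -0.23. Among them was Rab27a, which docks granules at the membrane (-0.83 ± 0.20).

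Among inhibitory receptors and checkpoints, 14 genes were tested, of which 3 fell, 0 rose and 8 were lower in both pairs, and their median was -1.20. Havcr2, which encodes TIM-3, fell from 9.24 and 8.42 in WT to 1.55 and 2.37 in KO, at least 14.2-fold (-6.87 ± 1.17, adjusted p = 0.0443). Ctla4, the receptor that competes with CD28 for its ligands, fell from 10.62 and 9.25 to 2.63 and 3.99, at least 30.6-fold (adjusted p = 0.0442). Lag3, a receptor for MHC class II, fell from 5.65 and 4.94 in WT, close to the limit of weak signals, to 1.08 and 1.79 in KO, at least 1.23-fold (adjusted p = 0.0435). Cd274, which encodes PD-L1, was level at 9.40 and 9.33 in WT and 9.38 and 9.45 in KO, and Pdcd1 was under log2 3 in all 4 arrays. Klrb1b, an inhibitory NKR-P1 receptor, differed by -10.83 in pair 1 and by -1.67 in pair 2 and was not called (adjusted p = 0.176). Its other bright probe sets were also lower in both pairs, at -3.88 and -3.2, at -9.57 and -2.09, and at -10.37 and -2.51.

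Among receptors of the NKC gene complex, the Ly49 gene Klra5 fell from 12.33 and 12.89 to 9.05 and 8.48, 14.4-fold (adjusted p = 0.0363). Klra5 was 1 of only 3 Ly49 genes tested, and Ly49 genes resemble each other closely. Klra16 was at 12.26 and 10.77 in WT and 8.74 and 10.23 in KO (adjusted p = 0.25). None of the 13 activating receptors and adaptors was called, beside 1.3% of all tested genes. Klrk1, which encodes the activating receptor NKG2D, was at 10.44 and 10.24 in WT and at 8.81 and 9.01 in KO (-1.43 ± 0.28, adjusted p = 0.219). Klrd1, the CD94 chain, was at 15.30 and 15.32 in WT and at 14.67 and 14.66 in KO (adjusted p = 0.514), and its partner Klrc1 pointed the other way, 12.18 and 12.53 against 14.06 and 13.71 (adjusted p = 0.273).

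Genes that the study named as promoting or restraining proliferation gave 1 call each way. Of 11 promoting genes tested, Styk1 fell, and 6 were lower in both pairs. Tnfrsf9, the costimulatory receptor 4-1BB, was at 13.04 and 12.99 in WT and at 10.48 and 10.53 in KO (-2.51 ± 0.07) and just missed the threshold (adjusted p = 0.0548). Kit, the receptor for stem cell factor, was at 14.03 and 13.74 in WT and at 11.94 and 12.23 in KO (adjusted p = 0.111), and Fhl2, a LIM domain protein, differed by -1.91 ± 0.11 (adjusted p = 0.122). Others pointed up: Il2ra, the alpha chain of the IL-2 receptor, was at 5.43 and 6.33 in WT and 7.85 and 6.95 in KO (adjusted p = 0.202), and Myc differed by 1.14 ± 0.06 (adjusted p = 0.206). On the probe sets used, Myb, Rab27b, Pik3cg, Itgae and Slc16a1 differed by less than 0.6 in their mean, with adjusted p from 0.63 to 0.998. Other probe sets of Myb differed by more, at -1.15 and -1.98 in the pairs and at -0.64 and -0.82. For Pik3cg another probe set pointed the other way, at -0.75 and -0.11. Of the 5 restraining genes, Tspan32 rose and 4 were higher in both pairs, among them Smad3, which relays TGF-beta signals (1.59 ± 0.33, adjusted p = 0.087), and Inpp4b, a lipid phosphatase (1.38 ± 0.57, adjusted p = 0.378). The study chose these genes on its own expression data, so their directions are not independent evidence.

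Replication and G1/S genes pointed upward in KO nearly without exception, although none passed the test. Of 34 tested, 31 were higher in both pairs and 0 lower in both, and 13 were higher by at least 1 in both. Their median was 1.32, with 1.75 in pair 1 and 0.83 in pair 2. E2f2, an activator of S-phase genes, was at 6.92 and 7.06 in WT and at 9.37 and 9.23 in KO (2.31 ± 0.20, adjusted p = 0.0583). Mcm2, a subunit of the replicative helicase, was at 7.94 and 8.99 in WT and at 10.84 and 9.80 in KO (adjusted p = 0.176).

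For mitosis, 30 of 34 genes were higher in both pairs and 1 was lower, with a median of 0.73. Aurkb, a kinase of chromosome segregation, was at 10.16 and 10.27 in WT and at 11.67 and 11.56 in KO (adjusted p = 0.172). Among CDK inhibitors, cyclins D and pocket proteins, Cdkn2c, which encodes the CDK4 and CDK6 inhibitor p18, rose from 10.50 and 10.54 to 12.41 and 12.37 (1.87 ± 0.05, adjusted p = 0.038). Gadd45g, a growth arrest gene, was at 12.58 and 12.42 in WT and at 10.12 and 10.28 in KO (adjusted p = 0.0583). Ribosome biogenesis genes had a median of 0.96 in pair 1 and -0.19 in pair 2.

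**Figure D4:**
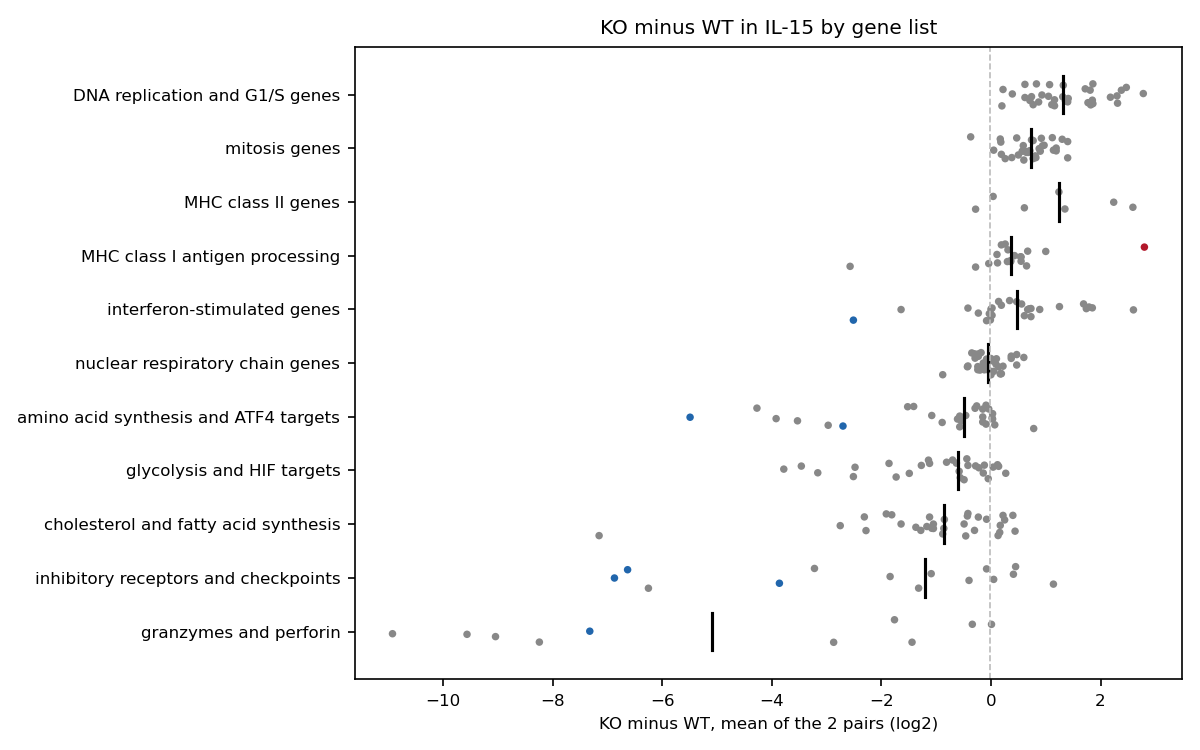
Difference between KO and WT (log2, mean of 2 pairs) for each tested gene of 11 lists in IL-15 cultured NKC. Blue points fell, red points rose, grey points were not called, the vertical bar is the median of the list, and the dashed line is the median of all tested genes (-0.01). Replication and mitosis genes lie to the right (medians 1.32 and 0.73), and granzymes furthest to the left (-5.09).

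In cholesterol and fatty acid synthesis, 22 of 31 genes were lower in both pairs and 2 higher, with a median of -0.86 and no call. Scd1, the desaturase that makes monounsaturated fatty acids, was at 9.69 and 8.37 in WT and at 1.23 and 2.54 in KO (-7.15 ± 1.86, adjusted p = 0.0768). Fdps and Cyp51, enzymes of the sterol pathway, were at 10.76 and 10.66 against 8.35 and 8.45, and at 11.56 and 11.43 against 9.62 and 9.76 (adjusted p = 0.0629 for both).

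Of 28 genes of glycolysis and the hypoxia response, 18 were lower in both pairs, 1 was higher and 0 were called, with a median of -0.61. Aldoc, an aldolase, was at 12.93 and 12.61 in WT and at 8.83 and 9.16 in KO (adjusted p = 0.0717), whereas the glucose transporter Slc2a1 had pairs of opposite sign, 0.29 and -0.39. Amino acid genes, among them targets of the stress factor ATF4, had 2 falls in 28, with 17 lower and 2 higher in both pairs. Asns, asparagine synthetase, fell from 11.91 and 9.85 to 4.36 and 6.42 (-5.49 ± 2.92, adjusted p = 0.0488). Slc7a5, a transporter of large amino acids, fell from 10.32 and 9.77 to 7.07 and 7.62 (adjusted p = 0.0483). The median of this list was -0.76 in pair 1 and -0.13 in pair 2. The 35 nuclear genes of the respiratory chain had a median of -0.05, with 13 lower and 8 higher in both pairs. That lay near the shares over all tested genes, 32.9% lower and 31.7% higher.

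Of the transcription factors, Tox, which is needed for NKC development, rose from 6.65 and 7.37 to 10.24 and 9.52 (2.87 ± 1.02, adjusted p = 0.0409). Bcl11b, a factor best known from T cells, rose from 8.59 and 8.66 to 10.46 and 10.39 (adjusted p = 0.0426). These were the only calls among 26 NKC lineage factors tested. Ikzf2, the Ikaros family member Helios, fell from 12.40 and 12.23 to 9.28 and 9.46 (-2.94 ± 0.24, adjusted p = 0.0363), the only call in that family. Irf4, a factor induced by antigen receptors, fell from 6.07 and 6.66 to 3.88 and 3.30, at least 2.58-fold. Its relative Irf8 was at 13.39 and 12.86 in WT and at 10.31 and 10.84 in KO (adjusted p = 0.0607). Rxra, a nuclear receptor for retinoids, rose from 5.60 and 5.86 to 7.87 and 7.61. Eomes and Tbx21, the T-box factors of NKC, differed by -0.25 ± 0.08 and 0.05 ± 0.38 (adjusted p = 0.851 and 0.986).

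In cytokine signalling, 1 of 20 genes of the JAK-STAT, SOCS and PIM list was called. Pim2, a survival kinase, rose from 10.33 and 10.30 to 12.44 and 12.48 (2.15 ± 0.05, adjusted p = 0.0326). Cish and Socs2, feedback inhibitors of JAK-STAT signals, were higher in both pairs without passing (2.05 ± 0.98 and 2.28 ± 1.36, adjusted p = 0.0756 and 0.102). None of the 12 tested genes of the common gamma chain receptors was called. Il2rb, the chain through which IL-15 signals, was at 11.87 and 12.23 in WT and at 11.50 and 11.14 in KO (adjusted p = 0.621), and Il7r, the IL-7 receptor, at 7.27 and 7.45 against 9.98 and 9.81 (adjusted p = 0.0709). A weaker probe set of Il2rb had means of 9.7 in WT and 7.56 in KO, with uneven pairs of -0.47 and -3.82. Tgfbr3, the TGF-beta coreceptor betaglycan, fell from 12.56 and 10.28 to 4.52 and 6.80, 54-fold, but with pairs of -8.03 and -3.47 (adjusted p = 0.0488). It was the only call among 20 genes of TGF-beta signalling.

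Cytokine, chemokine and death ligand genes gave no call. Tnfsf14, which encodes LIGHT, was at 3.86 and 5.34 in WT and at 8.77 and 7.30 in KO (adjusted p = 0.0631), and Tnfsf11, which encodes RANKL, pointed the other way at 10.62 and 9.36 against 5.96 and 7.22 (adjusted p = 0.0856). Ccl5, an abundant chemokine of cytotoxic cells, was at 13.03 and 12.65 in WT and at 14.13 and 14.51 in KO (adjusted p = 0.344), and Cxcr3, a chemokine receptor, at 12.50 and 12.61 against 14.06 and 13.94 (adjusted p = 0.106). Of 12 egress and homing genes, S1pr5 was the only one called. Klf2, a factor that controls such genes, had uneven pairs of 1.61 and 5.09.

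Nlrc5, the transactivator of MHC class I genes, rose from 8.34 and 8.83 to 11.63 and 11.14 (2.80 ± 0.69, adjusted p = 0.0426), and 13 of the 19 class I genes tested were higher in both pairs, with a median of 0.36. Tap1, the peptide transporter, was at 9.70 and 9.60 in WT and at 10.59 and 10.69 in KO (adjusted p = 0.221). H2-Q10 pointed the other way at -2.57 ± 0.13 (adjusted p = 0.127). For MHC class II, 6 of 7 genes were higher in both pairs and 0 were called. Of 27 interferon-stimulated genes, 12 were higher and 2 lower in both pairs, with a median of 0.47. Over all tested genes, 31.7% were higher and 32.9% lower in both pairs. Their only call was a fall, Ifitm3, an antiviral membrane protein, from 12.11 and 11.62 to 9.11 and 9.60 (adjusted p = 0.0363). Igtp, an interferon-induced GTPase, was at 11.97 and 11.91 in WT and at 13.65 and 13.71 in KO (adjusted p = 0.1).

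Genes that mark other cell types moved with some of these results. In bulk RNA, fewer cells of a type and less RNA per cell cannot be told apart. For mast cells and basophils, 4 of 13 markers on the array were tested and 2 fell, Mcpt8 and Cpa3, a carboxypeptidase (from 6.72 and 7.77 to 4.73 and 3.69). The summed level of that list was 14.21 and 13.83 in WT and 11.98 and 12.27 in KO, and its other 9 markers, Fcer1a, Ms4a2 and Hdc among them, stayed between 2.13 and 3.38. For granulocytes, 2 of 12 were tested. Ctsg fell and Mmp9, a gelatinase, was higher in both pairs (adjusted p = 0.102), the summed level was 10.09 and 9.52 in WT and 8.53 and 8.22 in KO, and the other 10, with Elane and Mpo, lay between 1.86 and 3.49.

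For B cells, 3 of 11 were tested and Bank1 rose, beside Ighm, the heavy chain of IgM, at 9.78 and 10.72 in WT and 11.66 and 10.72 in KO (adjusted p = 0.448). The summed level was 9.91 and 10.79 in WT and 12.30 and 11.48 in KO, and the other 8 markers, with Cd79a, Pax5 and Ms4a1, lay between 1.63 and 3.82 in all 4 arrays. For T cells, 6 of 14 were tested and Bcl11b rose. The summed level was 13.07 and 12.60 in WT and 13.08 and 13.26 in KO, Cd3e was at 5.63 and 5.22 against 5.45 and 5.86, and Cd3g had uneven pairs of -4.05 and -0.22. Outside the T cell list, the receptor segments Trgv4 and Trgv1 rose, as given above. Trav9d-3, a variable segment of the alpha chain, rose as well, from 7.02 and 7.17 to 9.18 and 9.03 (adjusted p = 0.0363). The part of such cells in the gene changes was not tested beyond these values.

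For macrophages and monocytes, 7 of 14 were tested and none was called. Lyz1, a lysozyme, was the only gene outside the protease run and Scd1 that differed by at least 5 in both pairs without a call, at 2.39 and 2.24 in WT and 7.43 and 7.58 in KO (adjusted p = 0.193), and in IL-2 its difference varied by an SD of 3.96 over 3 pairs. The summed level of the macrophage list was 10.94 and 10.26 in WT and 9.63 and 10.37 in KO. That sum hides members that moved apart, with 2 higher and 2 lower in both pairs. Lyz2, another lysozyme, differed by 1.99 and 5.08 in the pairs, and the brighter Cd68 by -2.27 and -1.14. Dendritic cell and helper-like innate lymphoid cell markers gave no call in 10 and 8 tested, with summed levels of 10.55 and 9.98 against 10.03 and 10.58, and of 13.79 and 13.74 against 13.86 and 13.92. These sums hide single members as well. Of the dendritic cell markers, 4 were higher and 0 lower in both pairs, with a median of 0.37. Of the innate lymphoid cell markers, 4 were higher and 2 lower in both pairs, with a median of 0.82. Among the latter, 3 were higher by at least 1 in both pairs. Erythroid and platelet markers, and stromal and endothelial markers, had 2 tested genes each and no call.

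The same contrast in IL-2 was set beside the 122 genes called in IL-15. The IL-2 arrays gave 990 genes higher (10.5%) and 861 lower (9.17%) in KO, from 3 pairs. Of the 122 genes, 93 were called in IL-2 as well, all in the same direction, 34 higher and 59 lower, and 0 in the opposite one. These 93 make up 76.2% of the IL-15 calls and 5.02% of the 1851 IL-2 calls. The contrasts share no array but share the estimate of spread per gene, so a gene with little spread could be called more easily in both. Tspan32 rose by 8.19 ± 0.35 in IL-2, beside 6.24 ± 0.42 in IL-15, and Ctsg fell by 7.56 ± 3.01, beside 8.24 ± 0.93.

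The remaining 29 genes, 9 higher and 20 lower, were not called in IL-2. Ret, a receptor tyrosine kinase, was at 8.47 and 8.31 in WT and at 3.98 and 4.14 in KO in IL-15, a difference of -4.33 ± 0.23, beside -0.27 ± 0.32 in IL-2. Kcnc1, a potassium channel, differed by -3.36 ± 0.44 and 0.00 ± 0.08, and Ms4a15 by -3.12 ± 0.23 and -0.10 ± 0.23. Ccn5 differed by 3.86 ± 1 in IL-15 and 0.03 ± 0.10 in IL-2. In IL-2 the WT and KO means of these 4 genes all lay in the weak range. They were 4.22 and 3.95 for Ret, 2.37 and 2.37 for Kcnc1, 2.22 and 2.11 for Ms4a15, and 2.32 and 2.35 for Ccn5. A fall of Ret, Kcnc1 or Ms4a15 could therefore hardly have been measured in IL-2. The IL-15 folds are lower limits: 10.5 for Ret, 1.41 for Kcnc1, 1.17 for Ms4a15 and 1.73 for Ccn5. These 4 were chosen after their values were seen, for the lowest p of the difference between the cytokines among the 122. The 29 genes also held Ikzf2, Irf4, Lag3, Pim2, Trim2 and Cpa3, whose IL-2 differences lay between -1.24 and 1.67.

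When the difference between the cytokines was itself tested, no gene passed (0%). The unadjusted p was under 0.05 for 1106 genes, 53 of them among the 122. The adjusted p was 0.0551 for Ret, 0.0666 for Kcnc1, 0.0811 for Ms4a15 and 0.083 for Ccn5, and 0.271 for Lag3. No gene was thus shown to respond in 1 cytokine and not in the other. With weak values set to log2 5 the count was 10, and without pair 2 of IL-15 it was 1. The cytokines also differed in the sex of the mice as far as transcripts show it. Xist was between 4.64 and 5.37 in the IL-2 arrays against at least 14.28 in IL-15, and the Y-linked Eif2s3y between 7.31 and 9.17 against at most 2.43. Cytokine and sex cannot be told apart in this comparison, whereas within IL-15 the WT and KO arrays were alike in both genes.

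**Figure D5:**
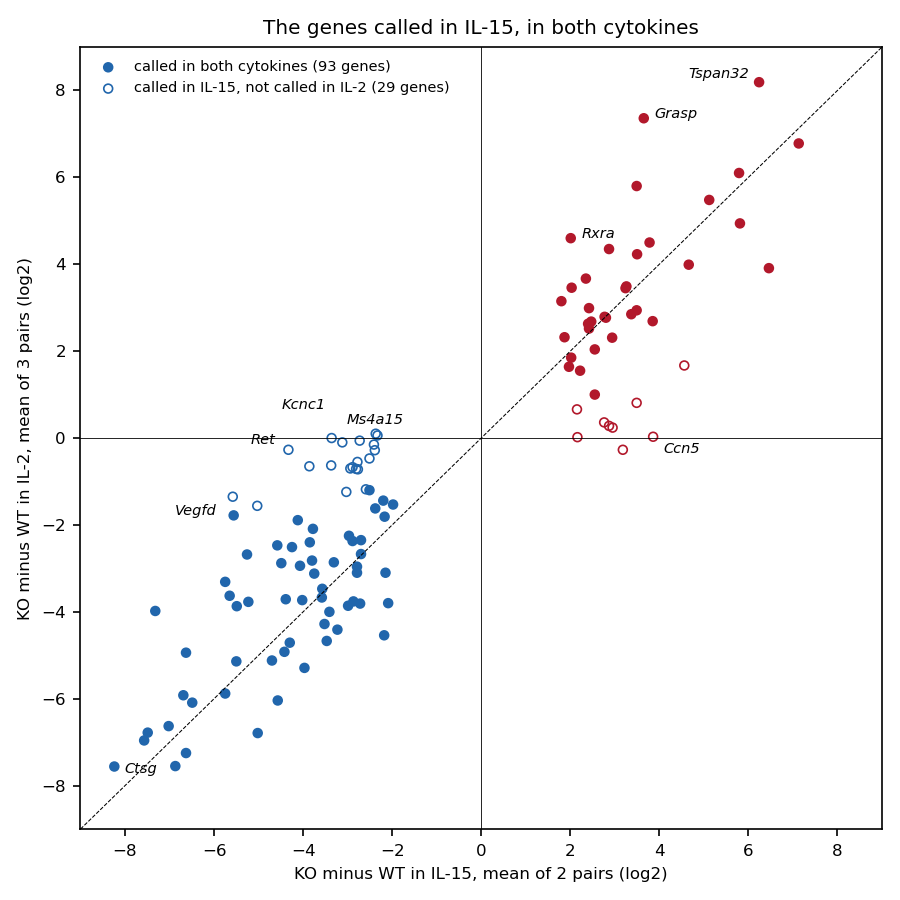
Difference between KO and WT (log2) in IL-15 (horizontal, mean of 2 pairs) and in IL-2 (vertical, mean of 3 pairs) for the 122 genes called in IL-15, with rises in red and falls in blue. Filled points were called in both cytokines (93 genes), open points in IL-15 alone (29 genes), and the dashed line marks equal differences. Tspan32 and Ctsg lie near the ends of the diagonal, and Ret, Kcnc1, Ms4a15 and Ccn5 lie near 0 on the vertical axis. For Ret, Kcnc1, Ms4a15 and Ccn5 both IL-2 means were under log2 5.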

How the data were processed

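The authors deposited log2 signals, which they had obtained for each probe set of Affymetrix arrays with GC-RMA (Partek; version not given in the sources used here). No further scaling was applied. The removal of pair differences, seen in the pair sums, is not described in the study's methods. Of 45101 probe sets, 34958 had 1 gene symbol in the platform table, 932 had several and 9211 were not listed. The probe set with the highest mean over 10 arrays stood for its gene, and 9391 of 18194 genes that reached log2 5 in at least 2 arrays were tested.

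Groups were taken from the labels. All 10 arrays were fitted with limma 3.58.1 (lmFit, eBayes) in R 4.3.3, with the numbered pair as a block, which left 3 residual degrees of freedom, and p-values were adjusted by Benjamini-Hochberg over all tested genes. The script was tested on simulated data. Array medians lay between 3.20 and 3.27 in IL-15, 52 values exceeded log2 16, and the number of arrays limits the precision. Since the array of a pair carries no spread of its own, p-values measure the spread between pairs, and what a pair shared is not stated.

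The arrays, the 47 gene lists and the 10 marker lists were chosen with earlier results of these data known. Lists were described by counts and medians, with no test. The genes named are Runx3, the 15 rises and 15 falls with the greatest difference in the weaker pair, the study's proliferation genes, the called members of each list, and up to 3 others per list; further genes named are single members given for their role. A list's summed level is the log2 of the summed linear signals of its markers. Log2 5 became the bound for folds only once values were known. Motifs were searched in the RefSeq promoter table (GRCm38.p6), whose annotation also gave the gene order. Alternatives covered the block, the filter, the scaling, the probe set, limits on low and high values, the variance prior, the study's thresholds and each pair.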

Additional observations from a re-analysis of the deposited data

How the results depend on the processing

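Without the replicate block, 1321 genes were called in IL-15, 3803 in IL-2 and 1157 for the difference between the cytokines, in place of 122, 1851 and 0. That fit takes the removal of pair differences for a small spread, so its counts are too high by construction. At the study's thresholds, an unadjusted p under 0.05 and 1.5-fold, the counts were 1269, 3391 and 1106. From the 4 IL-15 arrays alone, with the block, 41 genes were called in IL-15, 30 of them among the 122. With no filter on weak genes, IL-15 gave 0 and IL-2 842 calls, and with every probe set tested by itself IL-2 gave 2830; the cause was not tested. With values under log2 5 set to log2 5, the difference between the cytokines gave 10 calls. Leaving out 1 pair at a time gave 0 to 95 calls in IL-15, 537 to 1525 in IL-2 and 0 to 1 for their difference. The IL-2 count was 537 without its pair 1 and 1026 without its pair 2. All 46 called genes named in the text by the rule lost their call without pair 1 of IL-15, 39 without pair 2, and 36 without pair 1 of IL-2. Leaving out 1 pair gave -0.53 to 0.28 for Slc16a1 and -0.07 to 0.09 for Itgae, the only changes of direction among the 198 genes of the naming rule in the alternatives run. Other genes given with pairs of opposite sign, such as Slc2a1, Tbx21, Cd3e and Khnyn, turn with the pair that is left out by construction. Under median centring, the cap at log2 16 and quantile normalization, 122, 122 and 85 of the 122 genes kept their call. Crossing the numbers of the IL-15 arrays gives the same difference in both crossed pairs by construction, so that pairing could not be tested. The alternatives for IL-2 were added after the data were seen. The 2 pairs limit what the IL-15 arrays can show, and log2 5 was reached by 36.4% to 36.7% of probe sets on each of their arrays.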
